A study of Mus musculus with 42 samples.

Results

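The radiation response of mouse pre-B cell lines without Atm was set against that of wild-type (WT) lines. The members are 12 of the series' 42 arrays: 3 WT and 3 Atm-/- lines, each with 1 array untreated and 1 array 2 h after 1 Gy of γ-rays. The difference of differences was taken for every gene: the change of each line (irradiated minus untreated array with the same replicate number) on the scale log2(signal + 16), and then the mean change of the Atm-/- lines minus that of the WT lines. It was computed for 12363 genes, and below a negative difference means that a gene's change was lower in Atm-/- lines.

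All lines were made from bone marrow of mice 3 to 5 weeks old by retroviral transformation with v-abl, a tyrosine kinase oncogene that arrests B-cell precursors at the pre-B stage. WT and Atm-/- lines alike carry the Eμ-Bcl2 transgene, which expresses the survival protein Bcl2 in B cells and protects them from apoptosis. They differ in Atm genotype as labelled, the WT lines being numbered 1, 3 and 4 and the Atm-/- lines 1, 2 and 3. Control cells were mock treated and sampled at the same 2 h, and irradiated cells received 1 Gy from a 137Cs source at 0.72 Gy per minute. The 15 lines of 5 other mutants (Scid, Mre11A/A, 53bp1-/-, H2ax-/- and Mdc1-/-), made and treated in the same way, entered the estimate of the spread between lines and supplied reference genes. The labels call the lines of a genotype biological replicates but do not say whether each came from a different mouse, so p-values measure the spread between these lines.

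Atm is a protein kinase that is activated at DNA double-strand breaks, where the Mre11 complex recruits it. It phosphorylates p53 and its inhibitor Mdm2, which stabilizes p53 and raises transcription of p53 target genes such as Cdkn1a. It also signals to the IκB kinase complex in the cytoplasm, after which IκB proteins are degraded and NF-κB dimers enter the nucleus. In developing B cells, where the Rag recombinase makes breaks at immunoglobulin genes, the same kinase signals to genes of B-cell development.

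The labels and the arrays were checked first. The Atm probe sets gave 1300 to 1756 and 709 to 815 on the 6 WT arrays, and 129 to 281 and 85.3 to 282 on the 6 Atm-/- arrays. WT and Atm-/- arrays did not overlap on either probe set. Pre-B markers such as Vpreb1 and Igll1 (parts of the surrogate light chain) were the brightest of their list, whose summed signal was 64480 to 82180 on irradiated WT and 69740 to 83430 on irradiated Atm-/- arrays. Of the markers of other cells, 4 of 6 T-cell, 2 of 4 erythroid, 5 of 9 stromal, 3 of 4 NK-cell and 4 of 10 myeloid genes lay below the array median on all 12 arrays. T-cell, erythroid and stromal markers summed to at most 593 on any of these arrays. The NK-cell list reached 988 through Klrd1 and the myeloid list 1214, and no gene of these 5 lists was called in any comparison of WT and Atm-/- lines. Among 4 plasma-cell markers, bright through Xbp1, 1 was called up in WT lines. The irradiated arrays of WT line 4 and Atm-/- line 2 had the highest median signals of the series, 103 and 115, against 62.3 to 82.7 on the other 40 arrays. The changes of these 2 lines correlated with each other at 0.40 over genes, and all other pairs among the 6 lines at -0.12 to 0.16. The part of these arrays in the results was not tested, but counts without both lines are given below.

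Promoter stretches of some NF-κB and p53 response genes, picked because they hold a match, are shown first, because both pathways lie downstream of Atm. Promoter sequence (250 bases before to 50 after the transcription start, RefSeq, GRCm38.p6) was found for 9991 of the 12363 genes, but not for Relb or Cd40. The κB consensus to which NF-κB binds was searched on both strands and is in capitals in the first 4 stretches. The p53 consensus element, made of short parts before and after a spacer of any bases, was searched likewise. In the fifth stretch the capitals cover both parts and the spacer between them. Each stretch is printed in the direction of its gene and ends at or before the start. Other response genes had no match in their windows. The κB consensus was not found for Icam1 or Birc3, nor the p53 element for Mdm2, Pidd1, Aen or Bbc3. The window of the second listed start of Cdkn1a held no p53 element either.

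Nfkbia (chr12:55492648-55492706, minus strand): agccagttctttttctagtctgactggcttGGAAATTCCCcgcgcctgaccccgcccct

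Nfkb2 (chr19:46304682-46304736, plus strand, first of 3 listed starts): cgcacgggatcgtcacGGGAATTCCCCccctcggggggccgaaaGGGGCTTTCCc

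Ltb (chr17:35194390-35194459, plus strand): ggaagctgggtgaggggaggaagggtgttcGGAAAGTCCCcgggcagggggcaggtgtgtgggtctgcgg

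Nfkbie (chr17:45555564-45555633, plus strand): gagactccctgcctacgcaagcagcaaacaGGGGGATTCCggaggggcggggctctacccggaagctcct

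Cdkn1a (chr17:29090887-29090956, plus strand, first of 2 listed starts): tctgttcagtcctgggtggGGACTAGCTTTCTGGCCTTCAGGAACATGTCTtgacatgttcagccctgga

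Over all genes, 256 of 12363 (2.07%) differed in their radiation change between Atm-/- and WT lines at an adjusted p below 0.05 in limma. The change was lower in Atm-/- lines for 130 genes (1.05%) and higher for 126 (1.02%). Of the 130, 94 were called up in WT lines only, 20 were called down in Atm-/- lines only, 2 were both and 14 were neither. Of the 126, 66 were called down in WT lines only, 20 were called up in Atm-/- lines only, 5 were both and 35 were neither. The lines of the genotypes did not overlap in 126 of the 130 and 122 of the 126, against 12.57% of all genes. The calls were made on the same line changes, so these counts describe the calls and do not test them. On arrays centred on the median of the tested genes the split was 131 lower and 78 higher.

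**Figure D1:**
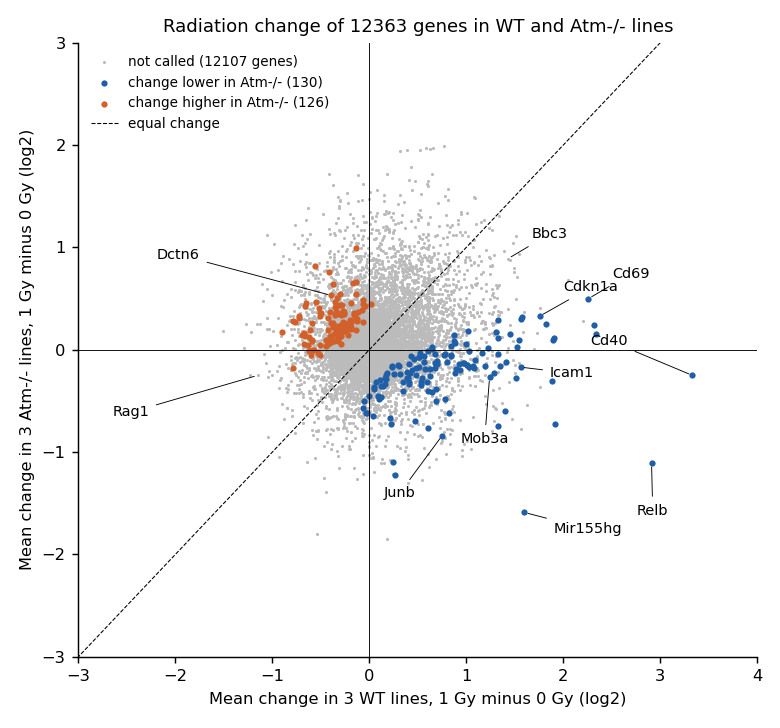
Mean radiation change (log2, 1 Gy minus 0 Gy) of each of 12363 genes in the 3 WT lines (x axis) and the 3 Atm-/- lines (y axis); blue points are the 130 genes with a lower and orange points the 126 genes with a higher change in Atm-/- lines, and the dashed line marks equal change. The genes that rose most in WT, such as Cd40 (3.33) and Relb (2.91), lie below 0 on the y axis, and the next, 9230114K14Rik (2.34), Nfkbie (2.32) and Cd69 (2.26), lie at 0.15, 0.24 and 0.50, whereas Bbc3 (1.43 in WT, 0.89 in Atm-/-) is not called.

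These counts depend on few lines. With WT line 3 left out 24 genes were called, and with WT line 4 left out 597. All 24 and 236 of the 597 were among the 256 with the same direction. Leaving out WT line 1 gave 64 genes, and leaving out both lines with bright irradiated arrays gave 553, of which 214 were among the 256. With the spread taken only from the 6 WT and Atm-/- lines (4 residual degrees of freedom against 14), 28 genes passed, all of them among the 256. The median SD of a gene's change was 0.29 among Atm-/- lines, 0.24 among WT lines and 0.22 among the other 15 lines.

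The genes that rose in WT lines showed little change as a group in Atm-/- lines. In WT, 247 genes (2.00%) were called up, with a median log2 change of 0.72. In the Atm-/- lines, whose arrays entered the choice only through the shared estimate of spread and the filter, the median change of the same 247 genes was 0.02, -0.04 and 0.12 by line, and the median of their means was 0.05. Over all genes that median was 0.03. Atm-/- lines called 1 of the 247 up (0.405%) and 2 down (0.810%), beside 0.518% and 0.809% of all genes. Of the 247, 140 (56.7%) had a mean above 0 and 107 below 0, beside 56.4% above 0 over all genes. In all 3 Atm-/- lines 51 of the 247 rose, beside 1837 of all 12363 genes. The change in Atm-/- lines was at least 50% of that in WT for 15 of the 247, between 25% and 50% for 37, below that for 88, and opposite in sign for 107. The difference itself was called for 96 of the 247. Where WT changes were called in a fit without the Atm-/- lines, chosen after seeing the data, 305 genes passed, among them all 247, and their median was 0.02, -0.02 and 0.12 in the Atm-/- lines.

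NF-κB genes made up the clearest group. Of 38 measured genes of the list of NF-κB targets and regulators, 20 rose in WT lines and none fell, whereas in Atm-/- lines none rose and 2 (Junb and Mir155hg) fell. The difference was lower in Atm-/- lines for 15 of the 38 and higher for none, against 1.05% and 1.02% of all genes. The list's median change was 0.73, 0.92 and 0.72 in the 3 WT lines and -0.08, -0.04 and -0.05 in the 3 Atm-/- lines. The other 5 genes that rose in WT without a called difference, Cd83, Ier3, Irf1, Map3k8 and Nfkbiz, had changes of 0.51 to 2.2 in WT and -0.36 to 0.28 in Atm-/- lines.

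Among the subunits, Relb (an NF-κB subunit that pairs with p52 and is itself induced by NF-κB) had untreated signals of 76.5, 32 and 38.7 in the WT lines and 388, 594 and 404 after radiation. In Atm-/- lines it went from 85.0, 133 and 55.5 to 64, 34.0 and 10.5. All 3 WT lines rose and all 3 Atm-/- lines moved down, though the latter change was not called. The untreated WT and irradiated Atm-/- signals of Relb lay near or below the medians of their arrays, where MAS5 values are imprecise. The changes were 2.91 ± 0.42 (SE, n = 3 lines) in WT and -1.11 ± 0.42 in Atm-/- lines (limma adjusted p = 0.19), and they differed by -4.02 ± 0.59 (95% interval -5.25 to -2.80, adjusted p = 0.0011). Nfkb2, which encodes p100, the precursor of p52, went from 138, 354 and 117 to 442, 567 and 515 in WT and from 229, 198 and 209 to 219, 200 and 165 in Atm-/- lines. The irradiated WT arrays all lay above the irradiated Atm-/- arrays. The difference was -1.53 ± 0.40 (adjusted p = 0.043), and a second probe set of Nfkb2 gave -3.02. Neither Rela (0.27 in WT and 0.07 in Atm-/- lines) nor Rel (0.42 and 0.05), the main activating subunits, passed the test in either genotype; both are named here after their values were seen.

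The inhibitors that NF-κB induces as feedback behaved likewise. Nfkbia (IκBα) went from 5727, 7527 and 5925 to 10860, 17150 and 9255 in WT lines and from 7422, 5125 and 7879 to 5609, 4952 and 8107 in Atm-/- lines. Every irradiated WT array exceeded every other array of the 6 lines. The difference of changes was -1.05 ± 0.14 (interval -1.34 to -0.76, adjusted p = 0.00068). Nfkbie (IκBε) rose by 2.32 in WT and had a change of 0.24 in Atm-/- lines (difference -2.08 ± 0.37, adjusted p = 0.0055). Bcl3, an IκB-related coactivator, had low untreated signals of 8.70 to 73.5 in WT lines, near or below the median of an array, and 48.9 to 583 after radiation, against 10.1 to 95.1 on the irradiated Atm-/- arrays (difference -1.79 ± 0.46, adjusted p = 0.040).

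Target genes with roles at the cell surface and in survival also rose in WT without a called change in Atm-/- lines. Cd40, a costimulatory receptor of B cells, went from 38.0, 66.9 and 43.3 to 756, 812 and 405 in WT lines and from 55.6, 90.0 and 111 to 56.0, 97.8 and 54.0 in Atm-/- lines. It was near the array median on untreated arrays of both genotypes and rose in WT only. The difference was -3.58 ± 0.56 (adjusted p = 0.0017), and 2 further probe sets of Cd40 gave -2.99 and -3.51. Icam1, an adhesion molecule, rose by 1.56 in WT and had a change of -0.17 in Atm-/- lines (difference -1.73 ± 0.30, adjusted p = 0.0043). Ltb (lymphotoxin β) differed by -1.79 ± 0.29 (adjusted p = 0.0023), although its untreated signal ranged from 193 to 1242 among WT and from 474 to 2478 among Atm-/- lines. Birc3, an inhibitor of apoptosis, rose by 1.19 in WT and had -0.16 in Atm-/- lines (difference -1.35 ± 0.21, adjusted p = 0.0017). The Pim2 kinase rose by 1.09 in WT and had -0.10 in Atm-/- lines (difference -1.19 ± 0.23, adjusted p = 0.0088).

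Mir155hg, the host transcript of miR-155, was called in opposite directions. Its signals were 10.3, 6.51 and 19.5 untreated and 38.1, 138 and 54.1 irradiated in WT lines, and 37.7, 81.6 and 78.9 untreated and 10.8, 12.2 and 7.92 irradiated in Atm-/- lines. Most of these values lie below the median signal of their arrays, where MAS5 values are imprecise. The changes were 1.60 (adjusted p = 0.023) and -1.59 (adjusted p = 0.044), with a difference of -3.19 ± 0.56 (adjusted p = 0.0047). The mature miRNA, which was not measured, is shown with its seed (bases 2 to 8, which pair with targets) in capitals as RefSeq gives it (GRCm38.p6, chr16:84714143-84714165, plus strand).

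miR-155-5p: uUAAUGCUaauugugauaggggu

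Junb, a subunit of the transcription factor AP-1, also rose in WT (163, 199 and 291 to 286, 459 and 378) and fell in Atm-/- lines (275, 305 and 387 to 212, 224 and 103). All lines of a genotype moved the same way, by 0.75 in WT (adjusted p = 0.047) and -0.84 in Atm-/- lines (adjusted p = 0.045). The difference was -1.59 ± 0.30 (adjusted p = 0.0081).

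**Figure D2:**
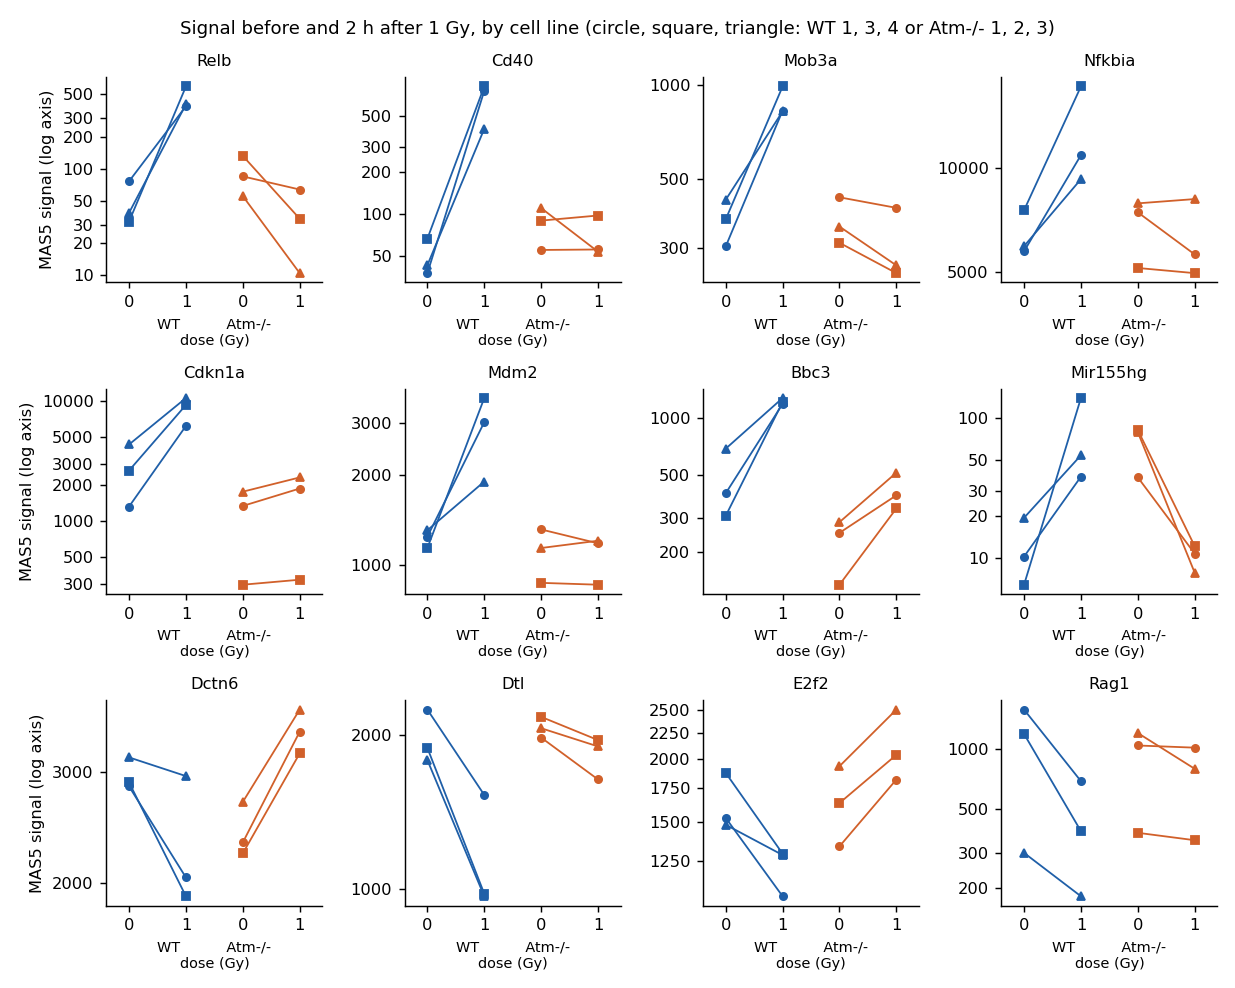
MAS5 signal (log axis) of 12 genes on the untreated (0 Gy) and irradiated (1 Gy) array of each WT line (blue) and Atm-/- line (orange), with a symbol for each line. Relb, Cd40, Mob3a and Nfkbia rise in every WT line only, Bbc3 rises in all 6 lines, and Dctn6 and E2f2 go down in every WT line and up in every Atm-/- line.

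The p53 targets also showed little change as a group in Atm-/- lines. Of 36 measured p53 targets, 22 rose in WT lines and none fell, and 1 of the 36, Bbc3, rose in Atm-/- lines, where none fell. Over all genes 2.00% were called up in WT and 0.518% up in Atm-/- lines. The difference was lower in Atm-/- lines for 9 (Aen, Btg2, Cdkn1a, Ddias, Gtse1, Mdm2, Phlda3, Pidd1 and Slc19a2). It was higher for 1, Sesn1, against 1.05% lower and 1.02% higher over all genes. The list's median change was 1.27, 0.96 and 0.42 in WT lines 1, 3 and 4 and 0.13, 0.05 and 0.22 in the Atm-/- lines. WT line 4 thus lay closest to the Atm-/- lines, and without it the median difference of the list moved from -0.65 to -0.99.

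Cdkn1a, which encodes the cell-cycle inhibitor p21, went from 1321, 2631 and 4331 to 6176, 9231 and 10530 in WT lines and from 1337, 296 and 1756 to 1865, 326 and 2306 in Atm-/- lines. Every irradiated WT array lay above every Atm-/- array. All 3 Atm-/- lines had a small positive change, with a mean of 0.33 ± 0.18 that was not called (adjusted p = 0.39), against 1.76 ± 0.18 in WT. The difference was -1.43 ± 0.25 (interval -1.96 to -0.91, adjusted p = 0.0052). A second, dimmer probe set of Cdkn1a did not show the small positive change in Atm-/- lines. It gave 1.36 in WT and -0.83 in Atm-/- lines, with a difference of -2.19. Mdm2, the ubiquitin ligase that degrades p53, went from 1244, 1139 and 1307 to 3019, 3640 and 1906 in WT and from 1315, 870 and 1139 to 1181, 857 and 1205 in Atm-/- lines. The difference was -1.19 ± 0.27 (adjusted p = 0.025). Pidd1, a death-domain protein that p53 induces, rose by 1.33 in WT and had 0.11 in Atm-/- lines (difference -1.22 ± 0.23, adjusted p = 0.0083). Aen, a nuclease of apoptosis, rose by 1.00 and had 0.06 (difference -0.94 ± 0.18, adjusted p = 0.0088). Btg2, an antiproliferative protein, rose by 0.82 in WT and had -0.62 in Atm-/- lines (difference -1.44 ± 0.29, adjusted p = 0.013), with changes of -0.79, 0.30 and -1.36 in the 3 Atm-/- lines.

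Bbc3, which encodes the proapoptotic BH3 protein Puma, rose in both genotypes. It went from 403, 307 and 690 to 1182, 1210 and 1269 in WT lines and from 250, 134 and 285 to 393, 336 and 517 in Atm-/- lines. All 6 lines rose, by 1.43 ± 0.21 in WT and 0.89 ± 0.21 in Atm-/- lines (adjusted p = 0.034), and the ranges of the changes overlapped. The difference was not called (-0.54, interval -1.15 to 0.07, adjusted p = 0.39). The interval leaves room for no difference and for the loss of most of the WT change. Ccng1, a cyclin induced by p53, rose by 0.88 in WT and had 0.23 in Atm-/- lines, and its difference was not called either on its brightest probe set (-0.65 ± 0.22, adjusted p = 0.13). The other probe sets of Ccng1 gave -1.03, which passed (adjusted p = 0.041 in limma over probe sets), and -0.90 (adjusted p = 0.084). The same held for Pmaip1, the BH3 protein Noxa (1.03 in WT, -0.01 in Atm-/- lines, adjusted p = 0.17 for the difference).

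Other genes that rose in WT only included genes of B-cell differentiation and of activation. Mob3a, a Mob-family kinase regulator, had the smallest adjusted p of all genes. It went from 303, 371 and 428 to 830, 992 and 825 in WT lines and from 436, 311 and 351 to 403, 249 and 263 in Atm-/- lines, without overlap of the irradiated arrays. The difference was -1.51 ± 0.18 (adjusted p = 0.00025). Of 26 early B-cell genes, 4 fell in WT and 2 rose, the transcription factors Spib and Irf4, and both of these had a lower change in Atm-/- lines. The difference was lower in Atm-/- lines for 3 of the 26 and higher for none. Over all genes 2.00% were called up and 1.76% down in WT, and 1.05% lower in the difference. The list's median change was -0.01 in WT and 0.01 in Atm-/- lines, and its median difference was 0.17. Spib rose by 1.52 against 0.03 (difference -1.50 ± 0.27, adjusted p = 0.0060) and Irf4 by 0.70 against -0.14 (difference -0.84 ± 0.17, adjusted p = 0.011). A second, dimmer probe set of Irf4 gave a difference of -0.32 that was not called (adjusted p = 0.64 in limma over probe sets). Cd69, an early activation antigen, went from 1347, 1254 and 2144 to 6424, 8440 and 7572 in WT and from 1337, 2033 and 1093 to 2417, 3041 and 1160 in Atm-/- lines. The difference was -1.76 ± 0.38 (adjusted p = 0.018), and the Atm-/- change of 0.50 was not called. Swap70, a signalling protein of B cells, differed by -1.37 ± 0.30 (adjusted p = 0.018). Pvt1, the noncoding neighbour of Myc that p53 induces, rose by 0.93 in WT and had -0.20 in Atm-/- lines (difference -1.13 ± 0.23, adjusted p = 0.012). Further differences of this size in genes that rose in WT were those of Maff (-2.65), Slc2a6 and the transcript 9230114K14Rik (-2.19 each), Pilrb1 (-2.08), Oas1b (-2.0) and Enc1 (-1.79). Pilrb1 (8.02 to 50.5 on untreated WT arrays), Oas1b (6.90 to 41.2) and Maff (9.13 to 26.4) were dim in untreated WT lines, and the mean changes of these 3 genes in the other mutants were 0.16, 0.16 and 0.42.

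**Figure D3:**
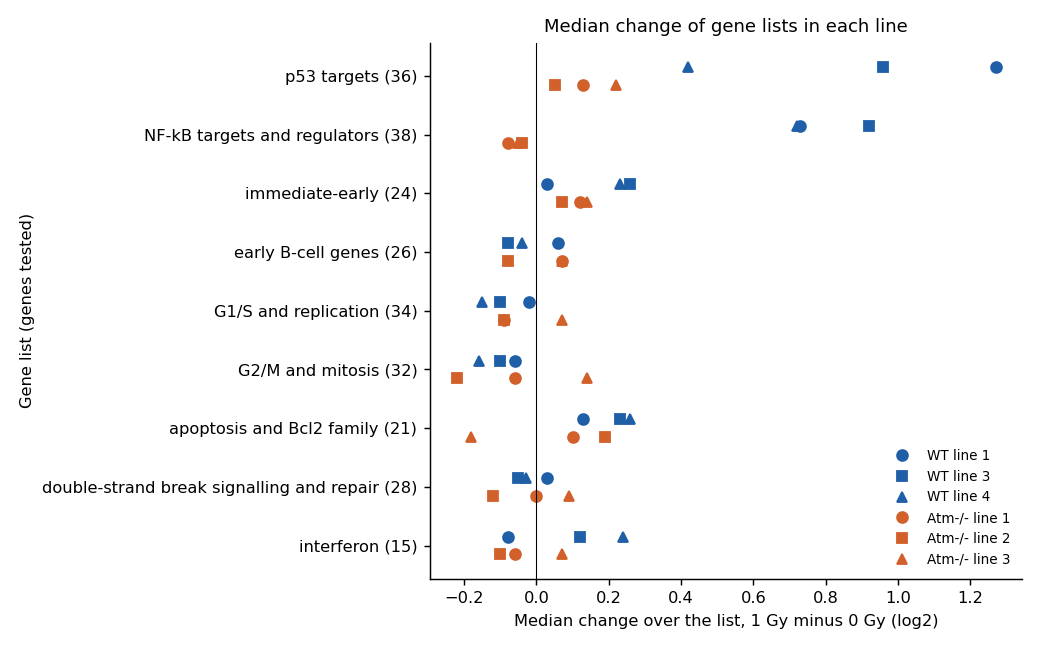
Median radiation change (log2, x axis) over the measured genes of 9 lists (y axis, number of genes in parentheses) in each WT line (blue) and each Atm-/- line (orange). The lines of both genotypes are separate for p53 targets (0.42 to 1.27 against 0.05 to 0.22) and for NF-κB genes (0.72 to 0.92 against -0.08 to -0.04), and overlap for the G1/S list.

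The genes that fell in WT lines showed no fall as a group in Atm-/- lines. In WT, 218 genes (1.76%) were called down, with a median of -0.39. The median in Atm-/- lines was 0.06, -0.04 and 0.05 by line and 0.01 for the mean, beside 0.03 over all genes. Atm-/- lines called 2 of the 218 down (0.917%) and 5 up (2.29%), beside 0.809% and 0.518% of all genes. A mean below 0 was seen for 103 (47.25%) and above 0 for 115, beside 43.6% below 0 over all genes. For 16 of the 218 the change was at least 50% of that in WT. The difference was called for 71 of the 218, always higher in Atm-/- lines. The 5 other mutants together showed part of the fall of these 71, with a median of -0.20 beside -0.41 in WT and 0.15 in Atm-/- lines. Mre11A/A lines showed little of it, with medians of -0.02, 0.02 and -0.09 by line. Lines of the remaining mutants had -0.38 to -0.10. Over all 218 genes the Mre11A/A medians were -0.05, -0.03 and -0.07, so a missing fall was not particular to Atm-/- lines. Called in a fit without the Atm-/- lines, 328 genes fell in WT, among them all 218, with medians of 0.06, -0.10 and 0.02 in the Atm-/- lines. The count of such genes was 59 without probe sets of less specific design (names ending in _x_at or _s_at, which may also detect related transcripts), 43 on arrays centred on their 75th percentile and 114 without the 2 lines with bright irradiated arrays. It was 1 with the spread of the 6 lines alone and 3 without WT line 3.

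Genes of the G1/S transition and of replication were among them. Of 34 measured, 5 fell in WT (Ccne2, Cdc6, Cdt1, Dtl and E2f2) and 1 rose, and in Atm-/- lines 1 rose (E2f2) and none fell. The difference was higher in Atm-/- lines for 5 (Ccne2, Cdc6, Dtl, E2f2 and Mcm4) and lower for 1, Ccnd2, against 1.02% and 1.05% of all genes. The list's median difference was 0.07. Dtl, a substrate receptor of the ubiquitin ligase that removes the licensing factor Cdt1 at replication forks, went from 2239, 1884 and 1784 to 1525, 978 and 967 in WT and from 1974, 2167 and 2059 to 1635, 1952 and 1897 in Atm-/- lines. Every line had a lower signal after radiation, but the fall was called only in WT, at -0.79 ± 0.10 against -0.18 ± 0.10 (adjusted p = 0.42). The difference was 0.61 ± 0.15 (adjusted p = 0.030), and 4 of the 5 other probe sets of Dtl gave 0.65 to 0.72. Cdc6, which loads the replicative helicase, fell by 0.54, 0.49 and 0.49 in the WT lines and had changes of -0.11, -0.23 and 0.19 in the Atm-/- lines (difference 0.46 ± 0.12, adjusted p = 0.041). Ccne2 (cyclin E2) differed by 0.50 ± 0.12 (adjusted p = 0.026).

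E2f2, a transcription factor that drives S-phase genes, went from 1525, 1873 and 1478 to 1066, 1295 and 1287 in WT and from 1339, 1632 and 1931 to 1817, 2034 and 2501 in Atm-/- lines. The WT lines fell (-0.41, adjusted p = 0.0040) and the Atm-/- lines rose (0.37, adjusted p = 0.025), with a difference of 0.78 ± 0.12 (adjusted p = 0.0011). The other probe set of E2f2, nearly as bright, gave 0.11. Mcm4, a subunit of that helicase, had a difference of 0.68 ± 0.17 (adjusted p = 0.036), while its other probe set gave -0.08.

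Of 32 genes of G2/M and mitosis, 8 fell in WT lines and none in Atm-/- lines, and the difference was called for 2, Cenpf and Kif2c, both higher in Atm-/- lines. Over all genes 1.76% were called down in WT, 0.809% down in Atm-/- lines and 1.02% higher in the difference, so that none of 32 in Atm-/- lines is near the share of all genes. The list's median change was -0.06, -0.10 and -0.16 in the WT lines and -0.06, -0.22 and 0.14 in the Atm-/- lines. The genotypes thus overlapped for the list as a whole, and its median difference was 0.07. Cenpf, a kinetochore protein, had changes of -0.41, -0.39 and -0.17 in WT and 0.07, 0.01 and 0.32 in Atm-/- lines (difference 0.45 ± 0.12, adjusted p = 0.045). The other probe sets of Cenpf gave differences of 0.01 and 0.34. Kif2c, a microtubule depolymerase, differed by 0.61 ± 0.13 (adjusted p = 0.015) on its brightest probe set and by 0.28, -0.06 and 0.10 on the others. Plk1 and Tpx2, mitotic regulators, had differences of 0.07 (interval -0.23 to 0.36) and 0.08 (interval -0.12 to 0.28). Tpx2 fell by 0.26 in WT lines and had -0.19 in Atm-/- lines, where it was not called.

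Rag1 and Rag2, the recombinase of antigen receptor genes, fell in WT and were not called in Atm-/- lines, but the differences missed the threshold. Rag1 went from 1579, 1190 and 299 to 688, 385 and 181 in WT and from 1041, 378 and 1203 to 1015, 347 and 794 in Atm-/- lines. The changes of the lines did not overlap, though line 3 of Atm-/- (-0.59) came close to WT line 4 (-0.68). The difference was 0.90 ± 0.25 (interval 0.37 to 1.43, adjusted p = 0.067), and for Rag2 it was 1.09 ± 0.33 (adjusted p = 0.081). Myc fell by 0.70 in WT and had changes of -0.01, -0.39 and -0.61 in the Atm-/- lines (difference 0.37, interval 0.03 to 0.70, adjusted p = 0.27).

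The largest called differences among genes that fell in WT, without overlap of the lines, were in genes of varied function. They were those of Rufy3 (1.09), Ccdc126 (1.07), Slain1 (1.07), Otud1 (a deubiquitinase, 1.05), Fcrla (an Fc receptor-like protein of B cells, 1.04), Mxd3 (a Max-binding repressor, 1.03), Zfp141 (0.93), Dctn6 (0.92), Gfra2 (0.86) and Lifr (the receptor of leukaemia inhibitory factor, 0.86). Most of these genes with further probe sets had values near 0 or of opposite sign on some of them. The others of Rufy3 gave 0.33, -0.47, -0.01 and -0.02, and those of Slain1 0.02 and 0.21. Those of Fcrla gave -0.08 and 0.68, of Mxd3 0.05 and 0.27, of Lifr -0.06 and -0.35, and of Gfra2 0.15, 0.84, 0.16 and 0.17. Ccdc126, Otud1 and Zfp141 had no further kept probe set. Otud1 went from 349, 349 and 221 to 178, 183 and 167 in WT and from 299, 595 and 542 to 380, 721 and 713 in Atm-/- lines. Every WT line fell and every Atm-/- line had a higher signal after radiation (adjusted p = 0.0025 for the difference). Dctn6, a dynactin subunit, went from 2847, 2888 and 3164 to 2044, 1909 and 2956 in WT and from 2322, 2232 and 2691 to 3474, 3211 and 3765 in Atm-/- lines. It fell by 0.39 in WT (adjusted p = 0.022) and rose by 0.53 in Atm-/- lines (adjusted p = 0.0066), with a difference of 0.92 ± 0.14 (adjusted p = 0.0011). Its other probe set gave 0.26 (adjusted p = 0.52 over probe sets).

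For many genes with a higher change in Atm-/- lines, a gene's probe sets did not agree in size. A call rested on the brightest kept probe set of a gene, and 5984 genes had at least 1 more. Among genes that rose in WT with a lower change in Atm-/- lines, 52 had a second probe set, whose median difference was -0.63 beside -0.90 on the first, with the same sign in 48. Among genes that fell in WT with a higher change in Atm-/- lines, 53 had one, with 0.27 beside 0.55 and the same sign in 41. Among genes with a higher change in Atm-/- lines that were not called down in WT, 44 had one, with 0.05 beside 0.49 and the same sign in 27 (61.4%, beside 56.3% of all genes with a second probe set). Probe sets ending in _x_at or _s_at made up 30.9% of that last group, 12.5% of the first and 10.8% of all genes. All these calls were made on the first probe set, so its larger value is in part the choice itself. As means over all probe sets of a gene, 99 differences were called, 62 lower and 37 higher.

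**Figure D4:**
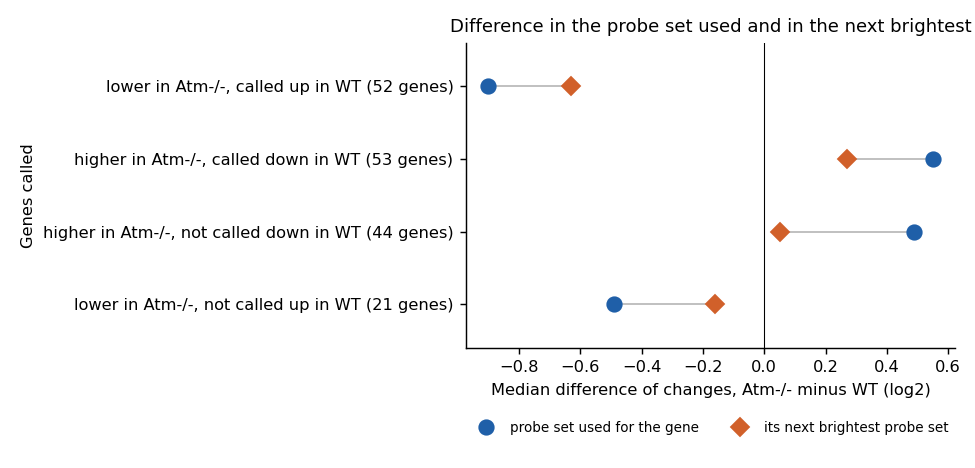
Median difference of radiation changes (log2, Atm-/- minus WT, x axis) in 4 groups of called genes (y axis, number of genes with a second probe set in parentheses), for the probe set used (blue circles) and the next brightest (orange diamonds). The second probe set keeps most of the difference for genes that rise in WT (-0.63 beside -0.90) and little for genes with a higher change in Atm-/- that were not called down in WT (0.05 beside 0.49).

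Atm-/- lines had called changes of their own, 64 up (0.518%) and 100 down (0.809%). The median change of the 64 in WT lines was -0.04, and that of the 100 was -0.02. These calls depended on the estimate of spread: with that of the 6 lines alone none passed, with weights for each line 1 did, and without Atm-/- line 3 there were 84. Genes called the same way in both genotypes were 3, Bbc3 up, and Smc6 and Narf down. Smc6, a subunit of a complex that maintains chromosomes, had -0.40 in WT and -0.43 in Atm-/- lines (difference -0.03, interval -0.33 to 0.27). Narf had -0.53 and -0.79 (difference -0.26, interval -0.70 to 0.19).

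Among the genes that rose in Atm-/- lines only, B3galnt2 (a glycosyltransferase) went from 972, 752 and 891 to 1620, 980 and 1585 in Atm-/- lines and from 1754, 1619 and 1379 to 1524, 1087 and 1081 in WT lines. Untreated Atm-/- arrays lay below all WT arrays of the same gene, and after radiation Atm-/- line 2 still did, whereas lines 1 and 3 lay above all irradiated WT arrays. The difference was 1.01 ± 0.15 (adjusted p = 0.0011), and the other probe sets of B3galnt2 gave 0.22 and 0.16. Adi1 (1.18), of the methionine salvage pathway, and Jpt1 (1.39) had other probe sets of -0.08 and 0.07, and of -0.37 and -0.22. Casd1 (1.14) was at 1.13 and 12.6 on the untreated arrays of Atm-/- lines 1 and 2, against 756 in line 3. Among the genes that fell in Atm-/- lines only, Ranbp1, a regulator of the Ran GTPase, went from 15470, 13920 and 17150 to 12060, 9336 and 9921. It went from 13820, 14480 and 13690 to 15010, 13720 and 11840 in WT lines, so that the ranges of irradiated arrays touched (difference -0.52 ± 0.11, adjusted p = 0.018).

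The genes that rose in WT with a called difference did not start from a higher level in Atm-/- lines by much. Over these 96 genes the median of untreated Atm-/- minus untreated WT was 0.07 (0.03 over all genes), and after radiation it was -0.96 (0.05 over all genes). All 3 irradiated Atm-/- arrays lay below all 3 irradiated WT arrays for 68 of the 96 (70.8%, against 4.89% of all genes). Over the 71 genes that fell in WT with a called difference, the untreated median was -0.20 and the irradiated median 0.39. Over all genes these were 0.03 and 0.05. All irradiated Atm-/- arrays lay above all irradiated WT arrays for 29 of the 71 (40.8%, against 6.83%). In 51 of the 71 the untreated mean was lower in Atm-/- lines, beside 5585 of all 12363 genes. Part of the difference of changes of these 71 genes thus lay in the untreated arrays. Because these genes were chosen on the same arrays, the values describe the calls and do not test them.

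Genes chosen by their change in the other mutants gave values of the same kind for the rise. In the 5 other mutants together, 197 genes rose by at least 0.5 with the same direction in each mutant (adjusted p below 0.05). In WT lines 1, 3 and 4 their median change was 0.91, 0.94 and 0.57, and 191 of the 197 had a mean above 0. In the Atm-/- lines it was 0.03, 0.07 and 0.11, with 124 above 0 (62.9%, beside 56.4% of all genes). WT called 129 of the 197 up (65.5%, beside 2.00% of all genes) and Atm-/- lines 1 (0.508%, beside 0.518%). The lowest medians among the other mutants were 0.17 in H2ax-/- line 2 and 0.32 in Mre11A/A line 1, both above all Atm-/- lines. With the rule applied to a fit of these 15 lines alone, chosen after seeing the data, 199 genes met it, among them all 197, and the medians in the Atm-/- lines were 0.02, 0.07 and 0.11. Only 13 genes met the same rule downwards, in both fits; their median was -0.57, -0.73 and -0.35 in the WT lines and -0.01, 0.01 and 0.10 in the Atm-/- lines.

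**Figure D5:**
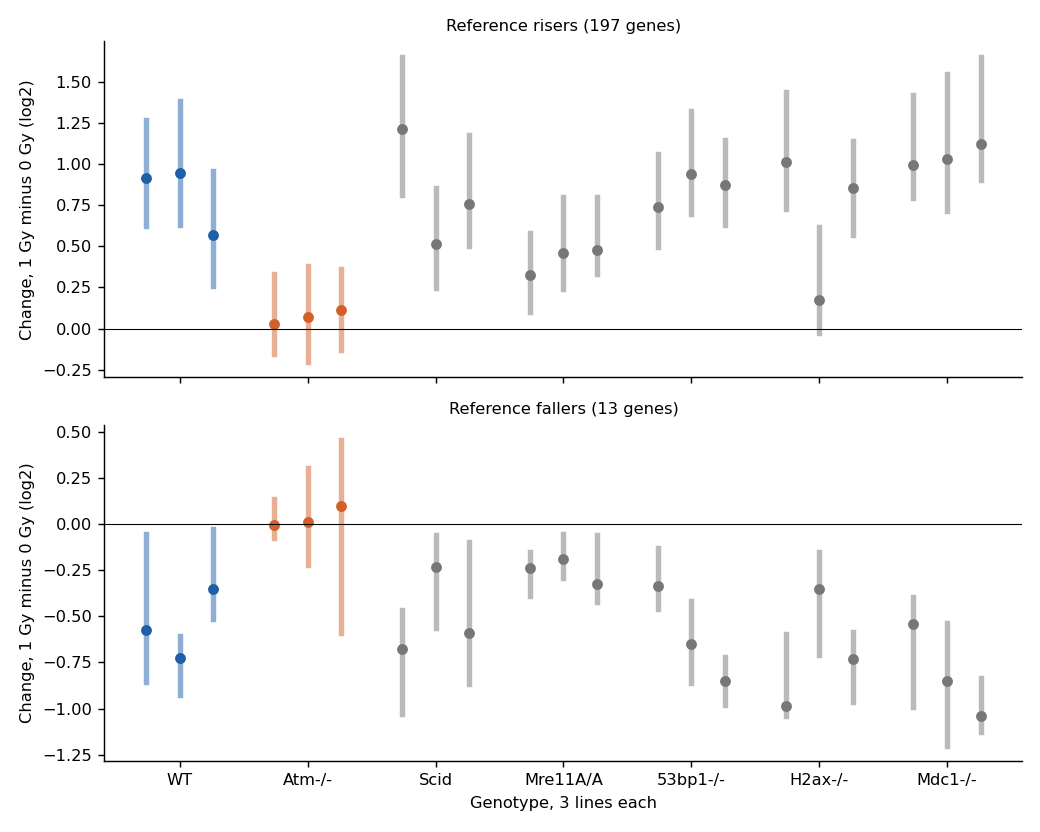
Radiation change (log2, y axis) of the 197 reference risers (top) and 13 reference fallers (bottom) in each of the 21 lines, grouped by genotype; points are medians and bars the middle 50% of genes. The Atm-/- lines have the lowest medians of the risers (0.03 to 0.11), below H2ax-/- line 2 (0.17), and medians near 0 for the fallers. The genes were chosen in the 5 genotypes drawn in grey.

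Set directly against the mean of the 5 other mutants, the change in Atm-/- lines was lower for 254 genes (2.05%) and higher for 170 (1.38%). WT lines differed from that mean at no gene in limma (0.00%), and 766 genes had an unadjusted p below 0.05. The difference of Cdkn1a was -1.66 ± 0.20 against the other mutants (adjusted p = 9.1e-05) and -1.43 against WT. It was -1.19 and -1.51 for Mob3a, -0.79 and -1.05 for Nfkbia, and -3.61 and -4.02 for Relb. Both comparisons share the Atm-/- arrays. For some genes that fell in WT, the other mutants had changes smaller than those of WT. The change of Dtl in Atm-/- lines was 0.02 from that of the other mutants (adjusted p = 0.96), whose mean was -0.20, against -0.79 in WT. The mean of the other mutants was -0.02 for Ccne2 (-0.33 in WT), -0.01 for Dctn6 (-0.39) and -0.21 for Ccdc126 (-0.90).

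Of the 79 genes with promoter sequence among the 96 that rose in WT with a called difference, 18 (22.8%) held the κB consensus, and 12.2% of the 9991 genes did. Among genes that rose in WT without a called difference the share was 24 of 126 (19.0%), and among the genes that fell in WT with a called difference 7 of 59 (11.9%). The p53 consensus element was in 4 of 9991 promoters (0.04%), 1 of them that of Cdkn1a. A match describes these letters in this window, and no match says nothing of binding elsewhere.

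The remaining lists held few called differences, to be read against 2.00% of all genes called up and 1.76% down in WT, and 1.05% lower and 1.02% higher in the difference. Of 28 genes of double-strand break signalling and repair, 1 (Chek1, the checkpoint kinase, 0.55 ± 0.14, adjusted p = 0.033) was called, and Lig4, the ligase of end joining, fell in WT only (-0.66) with a difference of 0.61 that was not called (adjusted p = 0.20). The probe set of Chek1 used ends in _s_at, and its other probe sets gave 1.31, 0.37 and 0.34, none of them called. Of 21 genes of apoptosis and the Bcl2 family, 5 rose and 1 fell in WT, and the difference was called for none. Of 24 immediate-early genes, 3 (Btg2, Ier5 and Junb) had a lower change in Atm-/- lines, and of 28 genes of Myc and ribosome biogenesis 2, Pvt1 and Ranbp1. None of 15 interferon genes of the list was called in either genotype, but Oas1b, an interferon-induced gene outside the list, was among the called differences above (1.40 in WT, -0.60 in Atm-/- lines). A count of none in 21 or 1 in 28 is near the share of all genes, whereas 3 of 24 is above it. Of these 3, however, Btg2 is also on the p53 list and Junb on the NF-κB list, where they were already counted. As a whole the immediate-early list had a median change of 0.12 in WT and 0.13 in Atm-/- lines, with a median difference of -0.05.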

How the data were processed

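The authors deposited linear intensities for each probe set, computed with MAS5 according to the submitters' processing notes; the version of that software is not given in the sources used here. The trimmed mean (2% off each end) was 500 on every array. RNA was labelled with biotin by the manufacturer's one-cycle protocol, per the labels. Of 45101 probe sets, 64 were controls, 34945 had 1 gene symbol in the platform annotation, 932 several and 9160 none here. Kept were those above their own array's median on at least 3 arrays (28260, of which 23245 had 1 symbol), and the brightest of each gene was used (12363 genes).

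Each line's change of log2(signal + 16) was tested with limma 3.58.1 in R 4.3.3 over all 21 lines (14 residual degrees of freedom, intensity trend, two-sided, Benjamini-Hochberg over all genes, threshold 0.05). The offset understates changes of dim genes. Only 3 lines per genotype limit the precision. Arrays of the same genotype and number were taken as 1 line, a paired design: their deviations from group means correlated at 0.354 to 0.643 in all 21 pairs, and at most at -0.0526 between different numbers. Deviations in a group cancel out, so positive values in the pairs make those between different numbers negative on average. The negative values are not separate support for the pairing. The code was tested on simulated data. Plots were drawn with matplotlib 3.10.9 and pandas 2.3.3, and the file was imported by R's data.table (1.17.8).

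The genotypes compared, the 22 gene lists and the rule for named genes were chosen with earlier results of these data known, so no list is independent evidence. Named were, among called genes without overlap of lines and by size of difference, those up in WT with a lower change in Atm-/- (up to 14), down in WT with a higher change (up to 10), called in Atm-/- (up to 5 each way) or in neither (up to 4 each way), up to 10 called the same way in both, up to 4 per list by p, and a fixed list of response genes; other list members are named where counts of calls are given.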

Additional observations from a re-analysis of the deposited data

Results flagged for a closer look

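The difference between genotypes itself was the result that stood out: 130 genes had a lower and 126 a higher radiation change in Atm-/- than in WT lines by limma's test of the difference. Of the 10 genes called in both genotypes, 7 were called in opposite directions. Junb (difference -1.59) and Mir155hg (-3.19) rose in WT and fell in Atm-/- lines, and most signals of Mir155hg lay below the median of their arrays. Dctn6 (0.92), E2f2 (0.78), Cenpc1 (0.84, a centromere protein), Cat (0.76, catalase) and Fbxo22 (0.71) fell in WT and rose in Atm-/- lines. Fbxo22 was at 130 on the untreated array of Atm-/- line 2, against 3084 and 2117 in lines 1 and 3, and its change there was 0.58. The causes were not tested.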

How the results depend on the processing

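No named called gene changed sign under the alternatives run, with 1 exception. Without probe sets ending in _x_at or _s_at, an alternative chosen after seeing the data, the total was 219, but 5 changed sign on the remaining probe sets: Adi1 (-0.08), Jpt1 (-0.22), Kif2c (-0.06), Mcm4 (-0.08) and Rufy3 (-0.02). Relb, Cd40 and Mob3a were called under every alternative in which they were tested, and Nfkbia, Ltb and Dctn6 in all but the unpaired fit. Other named genes lost their call often. Ccdc126 did so in 28 of 35 alternatives, Cenpf in 22, Nfkb2 in 17 and Cdc6 in 16, and of 34 alternatives Maff in 15 and Bcl3 in 13. Of 67 named called genes, 51 were lost without WT line 3 and 48 without the intensity trend.

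Without the replicate block (unpaired, line differences counted as spread), 3 differences were called (Cd40, Mob3a and Relb; 3 lower, 0 higher), 3 of them up and 0 down in WT, with 12 changes in WT, 1 in Atm-/- lines and 2 against the other mutants. With the spread of the 6 lines, the difference had 28 (22 lower, 6 higher; 22 up and 1 down in WT), WT 148 and Atm-/- 0. With means of probe sets it had 99 (62, 37; 48 up, 21 down) and Atm-/- 76. Without the intensity trend it had 33 (16, 17; 13 up, 7 down), WT 263, Atm-/- 50 and the other mutants 185. With line weights it had 89 (48, 41; 39 up, 32 down), Atm-/- 1 and the other mutants 40. Without WT line 4 and Atm-/- line 2 it had 553 (268, 285; 114 down in WT), Atm-/- 329 and the other mutants 660. Centring on the 75th percentile or the median gave 76 or 78 higher, 43 or 45 of them down in WT.

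WT changes called in a fit without the Atm-/- lines numbered 633. Leaving out 1 line at a time gave 24 to 597 differences (13 to 335 lower, 11 to 262 higher; 11 to 152 up and 3 to 94 down in WT), 114 to 539 changes in WT, 84 to 305 in Atm-/- lines, 332 to 555 against the other mutants and, for WT against them, 0 to 1.

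The median in Atm-/- lines of genes called up in WT was -0.02 to 0.09 and of those called down -0.05 to 0.05, -0.05 with the spread of the 6 lines and 0.07 without both bright lines. Reference risers had 0.74 to 0.90 in WT and 0.05 to 0.10 in Atm-/- lines (1.33 and 0.19 with a minimum of 1; Atm-/- 0.04 quantile normalized, 0.05 with offset 64). Reference fallers had -0.63 to -0.19 in WT (-0.69 offset 64, -0.66 stricter filter, -0.56 without Mre11A/A, -0.63 without both bright lines) and -0.08 to 0.20 in Atm-/- lines, 0 quantile normalized, -0.17 offset 64, -0.25 stricter filter, -0.16 means of probe sets, 0.04 without Mre11A/A or without _x_at and _s_at, -0.04 without both bright lines. The median difference was -0.99 to -0.58 for p53 targets and -1.01 to -0.78 for NF-κB genes, the latter -0.64 with offset 64, -0.50 with the stricter filter, -0.75 with means of probe sets and -0.72 without _x_at and _s_at. The cause of these shifts was not tested.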

Other observations

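Some probe sets without a single gene name also changed. Of 4369 kept probe sets unnamed here, 9 had a lower and 3 a higher change in Atm-/- lines (0.275% called). Those with the lowest differences, -1.87 and -1.32, had changes of 2.24 and 1.36 in WT and of 0.37 and 0.03 in Atm-/- lines. Of 646 probe sets with several symbols, 10 were lower and 1 higher.

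Among genes called for the difference but in neither genotype alone were Ifngr2, the signalling subunit of the interferon γ receptor (0.47 in WT, -0.70 in Atm-/- lines, adjusted p = 0.022), Ext1, which builds heparan sulphate (0.61 and -0.40, adjusted p = 0.036), and Riok2, a kinase of ribosome maturation (-0.34 and 0.42, adjusted p = 0.033). The differences on other probe sets were -0.59 for Ifngr2, -0.16 for Ext1, and -0.09 and 0.06 for Riok2. Sesn1, a p53 target that protects from oxidative stress, was likewise called only for the difference. Its signals went from 3119, 2481 and 2387 to 2419, 1463 and 1795 in WT lines and from 1080, 2031 and 3072 to 1736, 2604 and 2989 in Atm-/- lines. The difference of Sesn1 was 0.84 (limma adjusted p = 0.033), and its other probe sets gave 0.43, -0.40 and 0.09. Tlr9, a receptor for DNA, rose in Atm-/- lines (78.1, 62.2 and 7.62 to 118, 372 and 177, adjusted p = 0.021). Its signal was also higher on the irradiated array of WT line 4, 279 against 79.0 untreated, and the difference was not called (1.56, adjusted p = 0.18).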
